A study of Mus musculus with 6 samples.

Results

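The 35 genes described here encode the folding and quality-control machinery of the endoplasmic reticulum (ER), the compartment in which secreted and membrane proteins are made, together with the sensors and transcription factors of the ER stress response. They were chosen by gene symbol: all 35 symbols occur once in a deposited table of 19162 genes, and all 35 had enough counts to be tested. RNA sequencing had been carried out on bone marrow cells of C57BL/6J mice cultured for 4 days in 40 ng/mL GM-CSF (a myeloid growth factor), with 3 libraries from cultures without additional potassium chloride (control 1, 2 and 4) and 3 from cultures with 34.7 mM additional KCl (KCl 1, 2 and 4). The series names the cells bone marrow-derived myeloid-derived suppressor cells. The labels do not say whether replicates were separate mice or cultures, so the p-values reflect sample-to-sample spread that may be technical only, and no library with another added salt or solute was analysed here. Library totals ran from 14118724 to 21694831 counts.

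In the unfolded protein response, unfolded proteins in the ER lumen draw the chaperone BiP away from the membrane sensors IRE1, PERK and ATF6. IRE1 splices the Xbp1 mRNA, PERK phosphorylates the initiation factor eIF2 and so favours translation of ATF4, and ATF6 is cut in the Golgi to release a transcription factor. XBP1 and ATF6 raise transcription of chaperones and of ER-associated degradation genes, while ATF4 raises amino acid supply genes and the factor CHOP. Myeloid cells that make granules and secreted proteins depend on this machinery, and IRE1 and XBP1 are known for their part in eosinophil and dendritic cell development.

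Taken as a pair, the replicate 4 libraries averaged almost exactly to the libraries of replicates 1 and 2. The mean CPM (a gene's counts scaled by library size) of control 4 and KCl 4, divided by the mean of the remaining 4 libraries, had an SD of 0.00953 on the log2 scale over 8231 genes whose counts averaged 300 or more with no count of 0. Counting noise would give an SD of 0.0442, and any other pair of libraries had one of 0.123 to 0.262 (14 pairs). Replicate 4 is therefore not independent of the rest. Among the 35 genes the ratio lay between -0.02 and 0.04 (log2). P-values from all 6 libraries may therefore be too small, so the fold change without replicate 4 is given beside that of all 6 libraries for each of the 35 genes, and the count of calls without it for each gene list.

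Xbp1 and Ern1, which encodes IRE1, rose together with the degradation gene Derl1, while the ER chaperone gene Hsp90b1, the disulfide isomerase genes P4hb and Pdia3, the stress-induced genes Creld2 and Stc2, and Atf4 fell. Thus 3 of 35 genes were called higher and 6 lower at an adjusted p under 0.05 by the quasi-likelihood test of edgeR (Benjamini-Hochberg adjustment over all tested genes), and 26 did not pass. The calls of Ern1, P4hb, Stc2 and Xbp1 held with each single library left out, whereas those of Atf4 and Derl1 were lost with any 1 left out. Of all 13326 genes tested, 12.4% were called higher and 10.5% lower, which is the background for these counts: the share of the 35 called higher was smaller and the share called lower larger, and neither difference was tested. With upper-quartile scaling the counts were 2 higher and 11 lower. The median log2 fold change (KCl minus control) was -0.12 for the 35 genes and -0.00 for all tested genes, and 34 of the 35 genes had a log2 fold change within 0.5 of 0. Without replicate 4, 1 of the 35 was called, Stc2, against 0.333% of all genes called higher and 0.126% lower. In that fit 4 of the 35 had an unadjusted p under 0.05 with a higher level in KCl, beside 16.2% of all genes, and 11 with a lower one, beside 13.6%. The first share was below that of all genes and the second above it, and neither difference was tested.

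All 3 KCl libraries lay above all 3 control libraries for 4 of the genes, beside 20.2% of all tested genes, and below them for 12, beside 18.4%. For the other 19 the groups overlapped. Together the 35 genes took 1.07%, 1.09% and 1.05% of the counts in control 1, 2 and 4 and 0.935%, 0.967% and 0.977% in KCl 1, 2 and 4, a share that was lower in every KCl library. In bulk RNA, fewer cells of a type and less RNA per cell cannot be told apart. Markers of several cell types differed between the groups. Of 8 eosinophil markers 5 fell (Prg2, Epx, Ear1, Ear2 and Ear6), the summed level of the list being 2353 to 2584 CPM in control and 962 to 1118 CPM in KCl. Most of the sum was Prg2 and Epx, with means of 969 and 1048 CPM in control and 412 and 536 CPM in KCl. The receptor genes Siglecf (log2 fold change 0.13), Ccr3 (0.28) and Il5ra (-0.33) did not pass. Of 10 dendritic cell markers tested 3 fell (1856 to 2362 against 1355 to 1652 CPM). Of 12 monocyte and macrophage markers 5 rose (1878 to 2292 against 2690 to 3012 CPM), and of 12 neutrophil markers 3 rose (15255 to 17939.5 against 18789.8 to 26642 CPM). Of 11 B cell and plasma cell markers 3 rose and 1 fell, with sums of 181 to 197 CPM in control and 245 to 291 CPM in KCl. The sum rose mainly through Ighm (means of 62.3 and 114 CPM) and Sdc1 (12.9 and 46.2 CPM), and 7 of the 11 did not pass. These calls were fewer without replicate 4, where 4 eosinophil markers were called lower, 1 monocyte and macrophage and 1 B cell and plasma cell marker were called higher, and none of the neutrophil or dendritic cell markers was called. Of the early granulocyte markers 2 of 6 rose, with sums that overlapped between the groups, and of the basophil and mast cell markers 1 of 8 rose and 1 fell. Of the markers tested for plasmacytoid dendritic cells 1 of 5 rose and for stromal and endothelial cells 1 of 8, and none of 3 for T and NK cells or of 4 for erythroid cells and megakaryocytes passed in edgeR's test (1 and 0 at an unadjusted p under 0.05). Without replicate 4, 1 basophil and mast cell marker was called higher and no other marker of these 6 lists was called. No marker was at 0 in all 6 libraries. Mitochondrially encoded genes made up 3.89% to 4.80% of the control counts and 3.26% to 3.61% of the KCl counts. The part of these cell types and of the mitochondrial share in the results below was not tested.

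**Figure D1:**
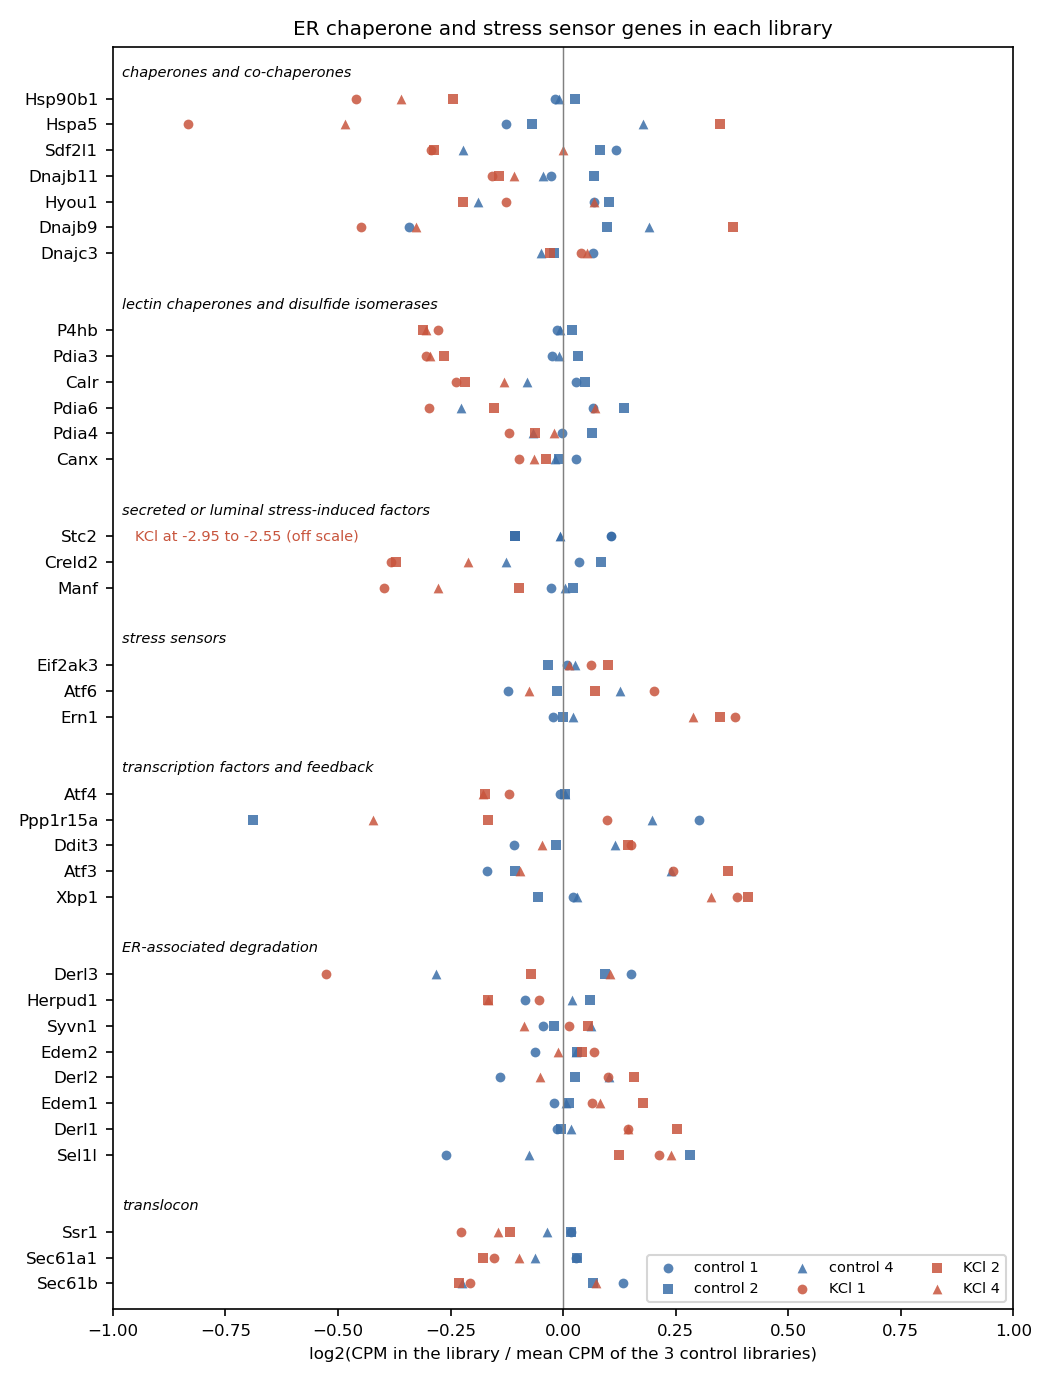
Level of each gene in each library as log2 of its CPM over the mean of the 3 control libraries (x axis), with the genes grouped by role on the y axis, blue for control, red for KCl, and circles, squares and triangles for replicates 1, 2 and 4; the KCl libraries of Stc2 are off the scale. All 3 KCl libraries of Hsp90b1, P4hb and Pdia3 lie to the left of control and those of Ern1 and Xbp1 to the right, while the KCl libraries of Hspa5 and Dnajb9 lie on both sides.

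Promoters of several of the genes, most of them chaperone genes, hold an element bound by factors of the ER stress response. The genes were listed for their part in the ER and this response, so a high share is not independent of their choice. The ER stress response element (ERSE), bound by NF-Y with ATF6 or XBP1, is CCAAT and CCACG with 9 bases between them. It was searched on both strands of RefSeq windows on build GRCm38.p6, from 250 bases before to 50 bases after each gene's start. A window was available for 30 of the 35 genes, and 9 of these (30.0%) held it, against 39 of 32851 windows (0.119%) over all genes. Its occurrences are shown 5′ to 3′ on the strand of the motif with the fixed bases in capitals, since it was the most widely shared of the 4 motifs searched.

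Hspa5: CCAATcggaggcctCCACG
Calr: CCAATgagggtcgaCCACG
Derl3: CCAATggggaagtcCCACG
Hsp90b1, first match: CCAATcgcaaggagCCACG
Hsp90b1, second match: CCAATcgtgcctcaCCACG
Canx: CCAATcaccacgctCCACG
Pdia6: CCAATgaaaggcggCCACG
Dnajc3: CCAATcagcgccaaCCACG
Creld2: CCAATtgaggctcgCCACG
Syvn1: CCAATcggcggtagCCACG

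Starts in GENCODE M21 can differ from those of RefSeq, and that of Hspa5 (chr2:34771970) lies before its element. The coordinates of the element on GRCm38.p6, with its first and last base relative to the RefSeq start, follow. It was on the sense strand in Hspa5 (chr2:34772025-34772043, -65 to -47), Hsp90b1 (chr10:86705638-86705656, -212 to -194), Canx (chr11:50325800-50325818, -145 to -127), Pdia6 (chr12:17266491-17266509, -98 to -80), Dnajc3 (chr14:118937827-118937845, -105 to -87) and Syvn1 (chr19:6046532-6046550, -44 to -26). It was on the antisense strand in Calr (chr8:84847075-84847093, -162 to -144), Derl3 (chr10:75893242-75893260, -156 to -138), Hsp90b1 (chr10:86705533-86705551, -107 to -89) and Creld2 (chr15:88819520-88819538, -126 to -108). The shorter ERSE-II, ATTGG and CCACG with 1 base between them, was found in Herpud1 from -52 to -42 and in Dnajb11 from 8 to 18, against 12 of all windows. The 8-base UPRE motif TGACGTGG was in none of the 30 windows and in 0.676% of all. The CARE motif TGATGNAA, bound by ATF4 with C/EBP factors, was in the windows of Atf3 and Herpud1, in each case as TGATGCAA on the antisense strand, and in 3.97% of all windows. A match describes these letters only and is not evidence of binding.

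The bases before the start are printed for Hsp90b1 and Creld2, which hold the element and fell, and for Xbp1, which rose and whose window held none of the 4 motifs, as far as they lie outside the gene in GENCODE M21. Each is given 5′ to 3′ in the direction of transcription, with the fixed bases of ERSE in capitals, which read CGTGG and ATTGG where the element is on the other strand. On GRCm38.p6 they are chr10:86705510-86705694 (- strand, 185 bases) for Hsp90b1, chr15:88819396-88819645 (+ strand, 250 bases) for Creld2, chr11:5520391-5520640 (+ strand, 250 bases) for Xbp1.

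Hsp90b1: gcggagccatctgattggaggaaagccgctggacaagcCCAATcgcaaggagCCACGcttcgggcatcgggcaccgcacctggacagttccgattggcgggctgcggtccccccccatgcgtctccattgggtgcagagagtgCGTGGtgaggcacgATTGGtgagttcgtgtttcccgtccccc
Creld2: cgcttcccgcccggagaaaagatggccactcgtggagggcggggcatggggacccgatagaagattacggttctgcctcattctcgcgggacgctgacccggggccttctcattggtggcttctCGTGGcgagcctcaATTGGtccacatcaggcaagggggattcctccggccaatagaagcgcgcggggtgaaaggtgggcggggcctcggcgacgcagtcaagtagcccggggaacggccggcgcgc
Xbp1: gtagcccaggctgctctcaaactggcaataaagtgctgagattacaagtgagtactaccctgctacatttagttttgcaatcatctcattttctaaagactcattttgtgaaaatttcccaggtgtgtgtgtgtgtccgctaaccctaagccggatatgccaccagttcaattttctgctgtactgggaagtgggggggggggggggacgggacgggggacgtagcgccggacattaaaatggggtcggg

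Of the 9 genes with ERSE, 2 fell (Hsp90b1 and Creld2) and 7 did not pass, and their median log2 fold change was -0.16, or -0.27 without replicate 4. Of the 21 genes with a window but no ERSE, 2 rose and 4 fell, with a median of -0.08, or 0.07 without replicate 4. Outside the 35 genes, 8 further genes with ERSE could be tested, of which 4 rose and 4 did not pass, with a median of 0.11, or 0.29 without replicate 4. The 4 that rose were the ER oxidase gene Ero1lb (0.27 ± 0.05), the adenylate cyclase gene Adcy3 (1.10 ± 0.20), the acetyl-CoA carboxylase gene Acacb (0.65 ± 0.16) and the deadenylase gene Pan2 (0.25 ± 0.05), named after their values were seen, and none of them passed without replicate 4. Of these 4 only Ero1lb was on the lists of ER genes. Over all tested genes 12.4% were called higher and 10.5% lower. Differences between these sets, or from all genes, were not tested.

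Among the lumenal chaperones and their co-chaperones, Hsp90b1, which encodes the ER HSP90 protein GRP94, was the only one of 7 to pass. Its level was 1167, 1204 and 1176 CPM in control 1, 2 and 4 and 859, 997 and 922 CPM in KCl 1, 2 and 4. The groups did not overlap, and the log2 fold change was -0.35 ± 0.07 (SE, n = 3 per group; adjusted p = 0.0146 in edgeR's quasi-likelihood test). It was -0.35 ± 0.11 without replicate 4 (adjusted p = 0.125), and the gene also missed the threshold without control 4 (0.058) or KCl 4 (0.0642) alone. Hsp90b1 (ENSMUSG00000020048) is at chr10:86690209-86705509 of GRCm38 (minus strand).

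Hspa5, which encodes BiP, the main ER HSP70 and the regulator of the sensors, varied most among the abundant chaperone genes. Its control libraries had 585, 608 and 722 CPM and its KCl libraries 358, 813 and 456 CPM, so that KCl 2 was the highest of the 6 libraries and KCl 1 the lowest. The log2 fold change of -0.23 ± 0.30 had a 95% interval from -0.96 to 0.49 (adjusted p = 0.655 in edgeR's test). Without KCl 2 alone it was -0.65 and passed (adjusted p = 0.0438), and without replicate 4 it was -0.03 (0.967). Dnajb9, which encodes the BiP co-chaperone ERdj4, showed the same order among the KCl libraries, with 27.1, 48.0 and 29.5 CPM in KCl 1, 2 and 4, and 29.2, 39.6 and 42.2 CPM in control (-0.08 ± 0.25, adjusted p = 0.845, and 0.12 without replicate 4).

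The remaining co-chaperone genes of this kind had narrow spreads. Dnajb11, encoding ERdj3, stood at 189, 202 and 187 CPM in control and 173, 175 and 179 CPM in KCl, without overlap (-0.14 ± 0.05, adjusted p = 0.106 in edgeR's test), and passed in 1 of 16 alternatives, upper-quartile scaling (0.047). Without replicate 4 it was -0.17 (0.195). Dnajc3, encoding p58IPK, an inhibitor of PERK, stood at 170 ± 7.21 CPM in control and 172 ± 5.25 CPM in KCl (mean ± SD, n = 3), and its 95% interval ran from -0.11 to 0.15 around 0.02 on the log2 scale, with -0.02 without replicate 4.

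Sdf2l1, a component of the ERdj3 chaperone complex, and Hyou1, the ER HSP110 and exchange factor of BiP, depended on replicate 4. Sdf2l1 stood at 161 and 157 CPM in control 1 and 2 and at 121 and 122 CPM in KCl 1 and 2, but at 127 CPM in control 4 and 149 CPM in KCl 4. Hyou1 stood at 217, 221 and 181 CPM in control 1, 2 and 4 and at 189, 177 and 216 CPM in KCl 1, 2 and 4. For both genes KCl was the lower group in replicates 1 and 2 and the higher library in replicate 4. With all 6 libraries the log2 fold changes were -0.19 ± 0.12 and -0.09 ± 0.11 (adjusted p = 0.373 and 0.64 in edgeR's test), and without replicate 4 they were -0.39 and -0.26 (adjusted p = 0.0708 and 0.11).

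The lectin chaperones and disulfide isomerases were all lower on average in KCl, and 2 of 6 passed. P4hb, which encodes the founding protein disulfide isomerase PDI, stood at 1113, 1139.7 and 1118 CPM in control and 927, 906 and 909 CPM in KCl, with no overlap and a log2 fold change of -0.30 ± 0.05 (adjusted p = 0.00809 in edgeR's test). Pdia3, encoding ERp57, the isomerase that works with calreticulin and calnexin, stood at 808, 842 and 817 CPM in control and 666, 685 and 670.3 CPM in KCl, again with no overlap (-0.29 ± 0.05, adjusted p = 0.00908). P4hb passed with each single library left out. Pdia3 missed the threshold without KCl 4 (adjusted p = 0.0506), and without replicate 4 neither passed, at unchanged fold changes of -0.30 and -0.29 (adjusted p = 0.114 and 0.112). P4hb (ENSMUSG00000025130) is at chr11:120560298-120573253 (minus strand), and Pdia3 (ENSMUSG00000027248) at chr2:121413775-121438687 (plus strand).

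Calr, encoding the lumenal lectin calreticulin, had the highest level per length of the 35 genes. Its levels were 1568, 1589 and 1453 CPM in control and 1304, 1320.2 and 1402 CPM in KCl, without overlap, and did not pass (-0.20 ± 0.06, adjusted p = 0.0712 in edgeR's test), although the gene did with upper-quartile scaling (0.0391) and in DESeq2 (0.0216). Without replicate 4 it was -0.27 (0.141). Canx, encoding its membrane-bound relative calnexin, also lay lower in every KCl library and differed less, at 597, 582 and 578 CPM in control and 548, 571 and 560.03 CPM in KCl (-0.07 ± 0.05, adjusted p = 0.414, and -0.08 without replicate 4). Pdia4 (ERp72) had a log2 fold change of -0.07 with a 95% interval from -0.20 to 0.07, and one of -0.12 without replicate 4. Pdia6 (P5), an isomerase that also acts on the sensors, stood at 418, 438 and 341 CPM in control and 324, 358 and 419 CPM in KCl, so that its groups overlapped only through replicate 4 (-0.12 ± 0.13, and -0.33 with adjusted p = 0.105 without replicate 4).

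Among the secreted or lumenal stress-induced factors, Stc2 stood apart. It encodes stanniocalcin-2, a secreted glycoprotein known as a target of PERK and ATF4. Its counts were 183, 164 and 114 in control 1, 2 and 4 and 20, 18 and 25 in KCl 1, 2 and 4, or 8.71, 7.51 and 8.05 against 1.05, 1.05 and 1.38 CPM. Every KCl library was far below every control library, and the log2 fold change of -2.79 ± 0.15 (95% interval -3.15 to -2.43) left 0.144 of the control level. Adjusted p in edgeR's quasi-likelihood test was 0.00155, and without replicate 4 the fold change was -2.94 (adjusted p = 0.038). Of the 9 called genes it was the only one to pass with every single library left out and also without replicate 4, and it passed in all 15 alternatives that tested it. Stc2 (ENSMUSG00000020303) is at chr11:31357307-31370074 (minus strand).

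Creld2, a calcium-binding protein of the ER lumen induced by ATF6, stood at 66.3, 68.6 and 59.2 CPM in control and 49.7, 50.03 and 55.9 CPM in KCl. Control 4 and KCl 4 were the nearest to each other, the groups did not overlap, and the log2 fold change was -0.32 ± 0.08 (adjusted p = 0.0352 in edgeR's test). The call was lost without control 1 (0.101), control 2 (0.0895), KCl 1 (0.113) or KCl 2 (0.0996), and without replicate 4, where the fold change was -0.44 (0.0732). Manf, a secreted survival factor released on ER calcium loss, stood at 171, 177 and 175 CPM in control and 133, 163 and 144 CPM in KCl (-0.25 ± 0.08, adjusted p = 0.072). It passed without KCl 2 (-0.34, adjusted p = 0.0244), with upper-quartile scaling (0.0321) and with library-size scaling (0.0311). Without replicate 4 it was -0.24 (0.237). As annotated, Manf overlaps Rbm15b on the same strand and Dcaf1 on the other. How strand was treated in counting is not given in the sources used here. Reads of overlapping genes therefore cannot be told apart with certainty.

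Of the 3 sensors, Ern1 rose. It stood at 56.0, 56.8 and 57.8 CPM in control and 74.1, 72.4 and 69.4 CPM in KCl, groups that lay well apart, with a log2 fold change of 0.34 ± 0.05 (adjusted p = 0.00704 in edgeR's test). The other sensor genes did not pass. Eif2ak3, encoding PERK, stood at 70.4, 68.4 and 71.3 CPM in control and 73.1, 75.1 and 70.7 CPM in KCl, with a 95% interval from -0.06 to 0.18 around 0.06, and 0.09 without replicate 4. Atf6 stood at 73.2, 78.9 and 86.9 CPM in control and 91.7, 83.7 and 75.6 CPM in KCl, with an interval from -0.16 to 0.30 around 0.07. Its order was reversed in replicate 4, without which the fold change was 0.20 (adjusted p = 0.203). Ern1 passed with each single library left out, and without replicate 4 its fold change was 0.38 (adjusted p = 0.0811). Ern1 (ENSMUSG00000020715) is at chr11:106394650-106487852 (minus strand).

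Xbp1, whose mRNA is the substrate of IRE1, showed the largest rise of the group. Its level was 505, 478 and 508 CPM in control and 649.6, 660.1 and 624 CPM in KCl, with every KCl library above every control library. The log2 fold change was 0.38 ± 0.05 (adjusted p = 0.00592 in edgeR's test), or 0.41 without replicate 4 (adjusted p = 0.0789), and the gene passed with each single library left out. Counts per gene do not separate the spliced from the unspliced mRNA, so they do not measure IRE1 activity. Xbp1 (ENSMUSG00000020484) is at chr11:5520659-5525893 (plus strand).

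Atf4, the transcription factor downstream of PERK that is regulated mainly in translation, stood at 361, 364 and 364 CPM in control and 334, 322 and 321 CPM in KCl. The groups did not overlap and the fall was small, at -0.16 ± 0.04 on the log2 scale (adjusted p = 0.045 in edgeR's test). The call was lost with any 1 library left out (adjusted p from 0.0721 to 0.176) and without replicate 4, where the fold change was -0.15 (0.237). The genes that mark the later, pro-apoptotic part of this arm did not pass. Ddit3, encoding CHOP, stood at 17.2 ± 1.35 CPM in control and 18.3 ± 1.39 CPM in KCl (0.09 ± 0.09, adjusted p = 0.607, and 0.21 without replicate 4), and it overlaps Mars on the other strand. Atf3, another stress-induced factor, was higher in KCl 1 and 2 (53.2 and 57.8 CPM) than in control 1 and 2 (40.0 and 41.7 CPM), but control 4 stood at 53.0 and KCl 4 at 42.0 CPM (0.19 ± 0.16, and 0.44 with adjusted p = 0.0811 without replicate 4). Ppp1r15a, encoding GADD34, which reverses eIF2 phosphorylation, ranged from 27.0 to 53.6 CPM within control, and its interval from -0.81 to 0.52 spans both directions, with 0.08 without replicate 4.

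**Figure D2:**
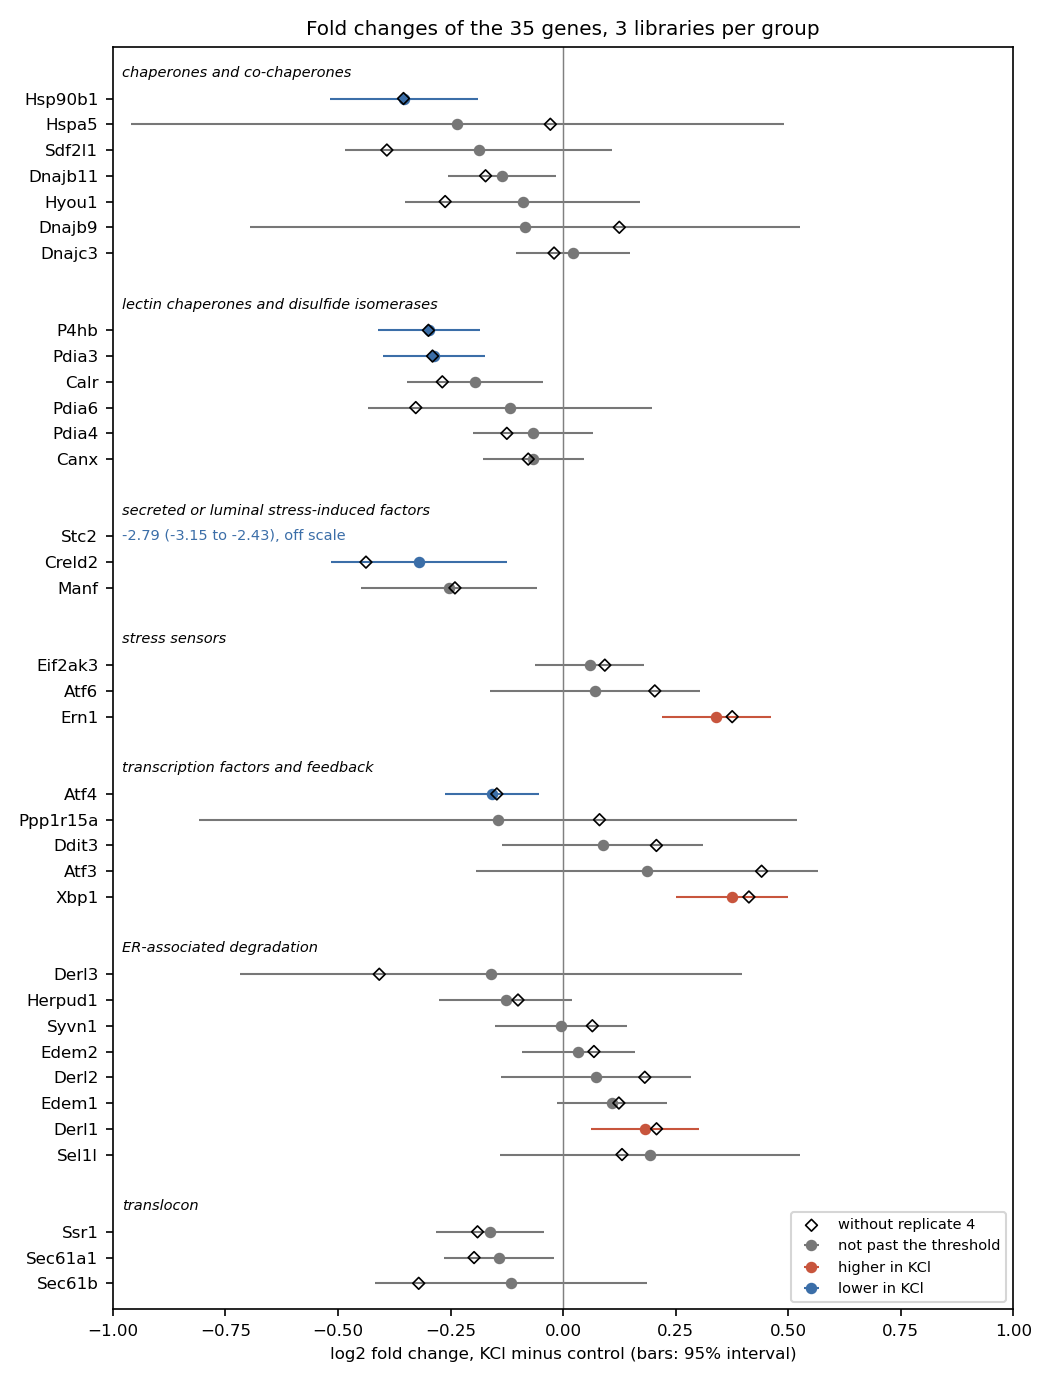
Log2 fold change of each gene, KCl minus control (x axis), with its 95% interval from the fit of all 6 libraries (filled points and bars, red where called higher, blue where called lower, grey otherwise) and the value without replicate 4 (open diamonds), genes grouped by role on the y axis. The diamonds of Hsp90b1, P4hb and Pdia3 fall on the filled points, those of Sdf2l1, Pdia6 and Sec61b lie further to the left, and Stc2 at -2.79 is off the scale.

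In ER-associated degradation, which returns misfolded proteins to the cytosol, Derl1 rose and the other 7 genes did not pass. Derl1, a channel component of the retrotranslocation complex, stood at 145, 146 and 148 CPM in control and 162, 174 and 161 CPM in KCl, without overlap (0.18 ± 0.05, adjusted p = 0.0444 in edgeR's test). The call was lost with any 1 library left out (adjusted p from 0.0663 to 0.135), in DESeq2 (0.0557) and with no filter on low counts (0.0824). It was also lost with RLE (0.0544) and upper-quartile scaling (0.0765), and without replicate 4, where the fold change was 0.21 (0.153). Edem1, which helps extract misfolded glycoproteins, stood at 413, 422 and 420.3 CPM in control and 437, 473 and 443 CPM in KCl, also without overlap (0.11 ± 0.05, adjusted p = 0.194, and 0.12 without replicate 4). Its relative Edem2 had an interval from -0.09 to 0.16 around 0.03, and 0.07 without replicate 4.

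The ubiquitin ligase Syvn1 (HRD1) stood at 70.7 ± 2.79 CPM in control and 70.5 ± 3.51 CPM in KCl, with 0.07 on the log2 scale without replicate 4, and overlaps Mrpl49 on the other strand. Sel1l, its adaptor, stood at 164, 239 and 186 CPM in control and 227, 214 and 232 CPM in KCl (0.19 ± 0.14, adjusted p = 0.426 in edgeR's test), and passed without control 2 (0.36, adjusted p = 0.0338), whereas without replicate 4 it was 0.13 (0.667). Herpud1, a scaffold of the same complex that is among the genes most readily induced in ER stress, stood at 113, 125 and 122 CPM in control and 116, 107 and 107 CPM in KCl (-0.13 ± 0.06, adjusted p = 0.206, and -0.10 without replicate 4). Derl2 (0.07 ± 0.09), which overlaps Mis12 on the other strand, and Derl3 (-0.16 ± 0.23) did not pass either, and were 0.18 and -0.41 without replicate 4. Derl3, which is characteristic of professional secretory cells such as plasma cells, was scarce, the control libraries having 30, 30 and 15 counts and the KCl libraries 17, 21 and 25.

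The translocon genes were lower on average in KCl, and none of the 3 passed in edgeR's test, where 2 had an unadjusted p under 0.05 with a lower level, as 16.4% of all tested genes did (17.9% with a higher one). Sec61a1, the channel subunit, stood at 312, 313 and 293 CPM in control and 275, 270.3 and 286 CPM in KCl without overlap (-0.14 ± 0.05, adjusted p = 0.0946, and -0.20 without replicate 4), and passed with upper-quartile scaling (0.0476). Ssr1, a subunit of the translocon-associated protein complex, stood at 339, 339 and 327 CPM in control and 287, 309 and 303 CPM in KCl, also without overlap (-0.16 ± 0.05, adjusted p = 0.0635), and passed in DESeq2 (0.0475), with library-size scaling (0.0361) and with upper-quartile scaling (0.0235). Without replicate 4 it was -0.19 (0.183). Sec61b, the small channel subunit, stood at 108, 103 and 83.8 CPM in control and 84.9, 83.5 and 103 CPM in KCl (-0.12 ± 0.12), or -0.32 without replicate 4 (adjusted p = 0.0895).

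Replicate 4 divided the genes into those whose difference it shared and those whose difference it reversed. The counts that follow were not made over all genes, so they cannot show anything particular to the 35. In replicates 1 and 2 alone, KCl lay above control without overlap for 11 of the 35 genes and below it for 18. In replicate 4 the difference had the opposite sign for 7 of these 11 (Atf6, Eif2ak3, Atf3, Ddit3, Edem2, Syvn1 and Derl2) and for 6 of these 18 (Hyou1, Sdf2l1, Pdia4, Pdia6, Derl3 and Sec61b). For Hsp90b1 the log2 differences were -0.36 in replicates 1 and 2 and -0.35 in replicate 4, and for P4hb -0.30 and -0.30. For Xbp1 they were 0.41 and 0.30, whereas for Atf3 they were 0.44 and -0.34 and for Sdf2l1 -0.39 and 0.22. All 9 called genes had the same direction in replicate 4, which was among the libraries that called them. Replicate 4 is also not independent of replicates 1 and 2, so a difference shared with it is not a replication.

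**Figure D3:**
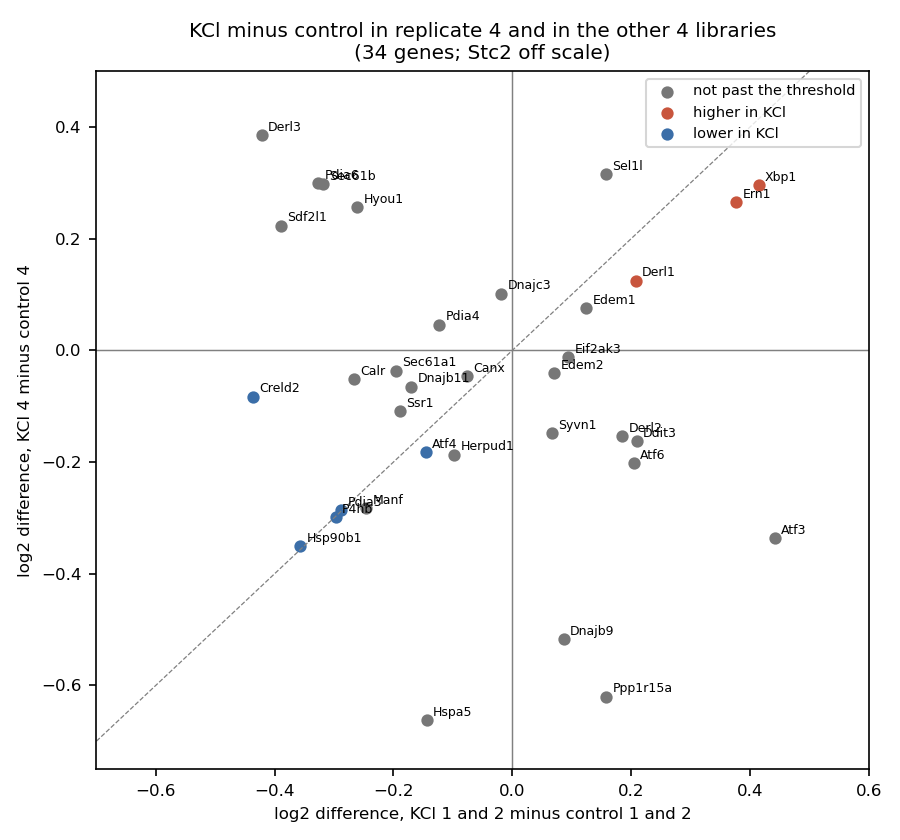
Log2 difference between KCl and control in replicates 1 and 2 (x axis) and in replicate 4 (y axis) for 34 genes, without Stc2, with the dashed line at equal differences and colours as called with all 6 libraries. Hsp90b1, P4hb and Pdia3 lie on the line, while Sdf2l1, Pdia6, Sec61b, Hyou1 and Derl3 sit at upper left and Atf3 at lower right, with opposite signs in the 2 sets. The 2 sets are not independent, so a point on the line is not a replication.

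Levels per gene length, as the deposited FPKM (fragments scaled by gene length and library size), spanned the range from the lumenal chaperones to the scarce Stc2. In control the highest were Calr (364 ± 18.3 FPKM, mean ± SD, n = 3), P4hb (299 ± 3.79), Hsp90b1 (220.3 ± 3.51), Atf4 (212 ± 0.462) and Pdia3 (209.5 ± 4.35), of which the last 3 lay close together. In KCl the order began with Calr (313 ± 17.2), P4hb (240.1 ± 8.19), Atf4 (187 ± 7.55), Hsp90b1 (169.9 ± 9.06) and Pdia3 (169 ± 2.12). Xbp1 moved from rank 8 in control (111 ± 3.65 FPKM) to rank 6 in KCl (142 ± 2.80), above Sdf2l1 and Pdia4. Of the sensors, Eif2ak3 (8.88 ± 0.182 FPKM) and Atf6 (8.59 ± 0.714) did not differ beyond their spread in control, and Ern1 (5.38 ± 0.0645) was lower than both. Derl3 (0.970 ± 0.153) and Stc2 (0.867 ± 0.0665) were the lowest and did not differ beyond their spread in control, whereas in KCl Stc2 (0.123 ± 0.0223) was far below Derl3 (0.866 ± 0.186). The length implied by the deposited FPKM was 0.67 to 2.25 times the exon length in GENCODE M21, so neighbours in this order may change places with another length. On CPM per kilobase of exon, Calr, P4hb, Hsp90b1, Pdia3 and Atf4 were again the first 5, and 9 of the first 10 genes were the same.

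**Figure D4:**
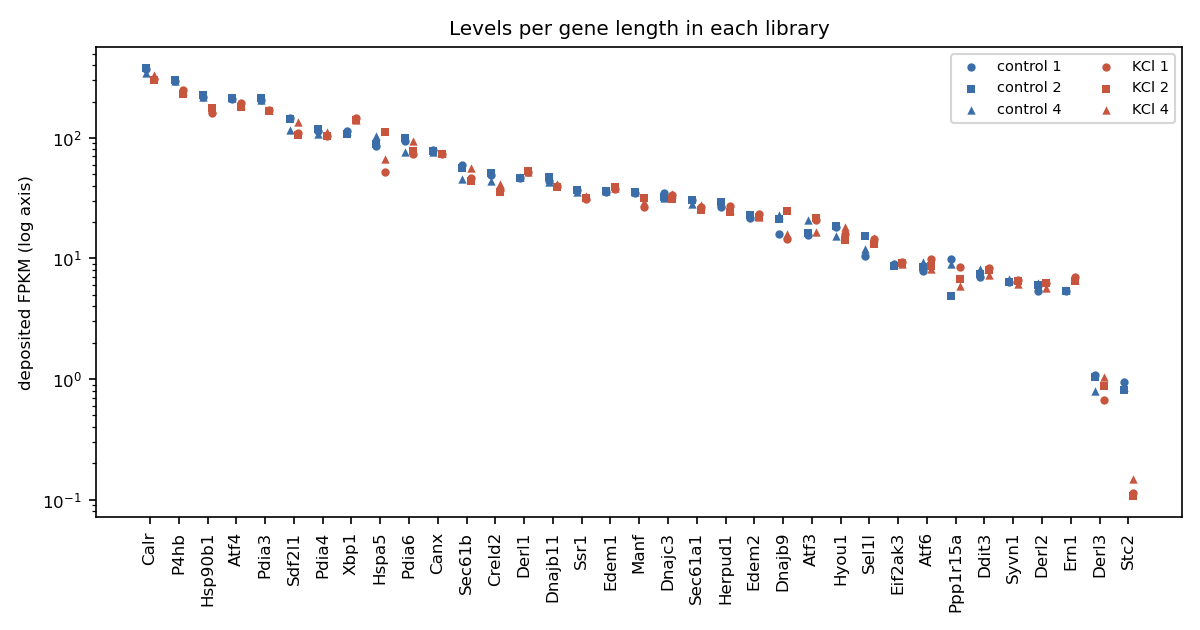
Deposited FPKM of each gene in each library (log y axis), with genes on the x axis ordered by their control mean, blue for control and red for KCl, and marker shapes for replicates 1, 2 and 4. Calr is the highest at 364 FPKM in control, Xbp1 stands above its neighbours in KCl only, and Stc2 separates the groups most widely.

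Among other genes of the ER and secretory pathway, 119 were lower on average in KCl and 57 higher. Of 180 such genes on 6 lists, 176 were in the table and tested, of which 12 rose, 26 fell and 138 did not pass. Their median log2 fold change was -0.07, with a range from -0.83 to 0.78. The shares called can be set beside 12.4% and 10.5% of all genes. With upper-quartile scaling, 8 rose and 39 fell. Without replicate 4 edgeR called 0 of the 176, where 15 had an unadjusted p under 0.05 with a higher and 33 with a lower level in KCl, beside 16.2% and 13.6% of all genes. So each rise or fall in the next paragraphs is a call of the fit of 6 libraries that the fit of 4 did not make.

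The folding enzymes outside the 35 genes were split, with 5 of 31 rising and 5 falling. Txndc5, a disulfide isomerase, rose from 63.1 ± 1.78 to 93.3 ± 4.76 CPM (0.56 ± 0.06, adjusted p = 0.00345 in edgeR's test), and Fkbp9, a prolyl isomerase, from 7.58 ± 0.283 to 11.9 ± 0.393 CPM (0.65 ± 0.07, adjusted p = 0.00423). Pdia5, another disulfide isomerase, fell from 14.2 ± 0.225 to 9.05 ± 0.501 CPM (-0.65 ± 0.07, adjusted p = 0.00409), and Ppib, encoding cyclophilin B, from 213 ± 3.61 to 179 ± 2.62 CPM (-0.25 ± 0.04). The disulfide isomerase genes Txndc5 and Pdia5 thus moved in opposite directions.

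Of 21 further genes of signal recognition, translocation and signal peptidase, 6 fell, among them the signal peptidase subunits Sec11c (-0.25 ± 0.05) and Spcs2 (-0.22 ± 0.04), and 1 rose, the translocon-associated gene Tram2 (0.36 ± 0.10). The list median was -0.11. For N-glycosylation and glycan trimming, 6 of 30 fell and 1 rose, with a median of -0.12 and 27 of 30 log2 fold changes below 0. Ostc (-0.38 ± 0.05, from 100.01 to 76.8 CPM) and Magt1 (-0.23 ± 0.05), subunits of the oligosaccharyltransferase that adds glycans to nascent proteins, fell, and the mannosyltransferase gene Alg1 rose (0.37 ± 0.09). Of 27 genes of ER exit and retrieval, 4 fell, including the cargo receptor gene Lman1 (-0.19 ± 0.04) and the COPII coat gene Sec23a (-0.29 ± 0.06), and 23 did not pass.

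Further ER-associated degradation genes showed little difference, as 30 of 31 did not pass and the median was -0.01. The exception was Man1b1, an ER mannosidase that trims glycans before degradation, which rose from 79.2 ± 0.978 to 106 ± 10.4 CPM (0.42 ± 0.08, adjusted p = 0.013 in edgeR's test). Of 36 other genes of stress signalling, 4 rose and 5 fell. The transcription factor genes Cebpg (0.41 ± 0.07) and Atf5 (0.48 ± 0.10), whose products act alongside ATF4, rose, and Sesn2, a stress-induced inhibitor of the mTORC1 kinase, fell from 122 ± 11.1 to 78.0 ± 8.19 CPM (-0.65 ± 0.10, adjusted p = 0.00841). Cdk5rap3, a cofactor of the UFMylation ligase, fell by 0.25 ± 0.05 on the log2 scale.

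**Figure D5:**
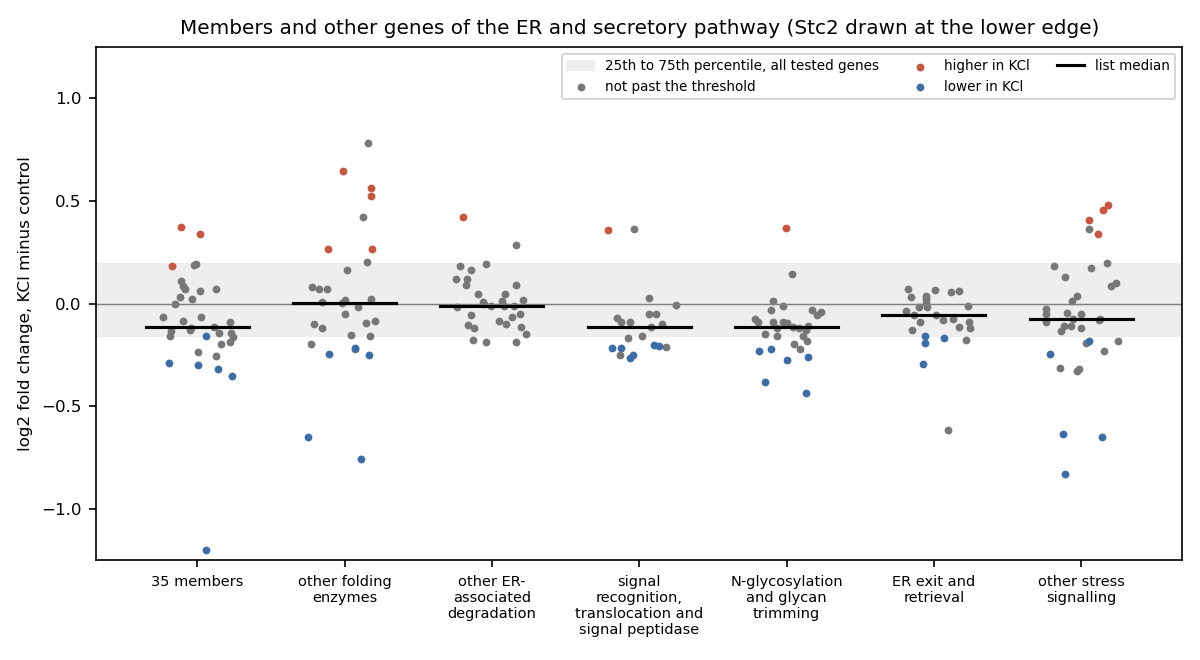
Log2 fold change, KCl minus control (y axis), of the 35 genes and of the tested genes of 6 further lists (x axis), 1 point per gene, red where called higher, blue where called lower and grey otherwise, with black bars at the list medians and a grey band from the 25th to the 75th percentile of all tested genes. Stc2 is drawn at the lower edge. The medians lie between -0.12 and 0.00, inside the band, and the folding enzymes have as many called genes above 0 as below it, 5 each.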

How the data were processed

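Whole numbers of reads per gene and FPKM values for 6 libraries were taken from a table deposited by the authors. The counts are not normalized. The FPKM are the authors' values, and the gene length they imply is the same in every library. HISAT2 2.0.4, StringTie 1.3.3b, edgeR and build mm10 appear in the submitters' processing notes, per the labels' processing fields, and how reads were counted, strand included, is not given in the sources used here. Total RNA had been sequenced.

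Groups and replicate numbers came from the labels. Genes were kept by edgeR's filterByExpr (minimum count 10, minimum total 15), counts were scaled by TMM, and KCl was compared with control by the robust quasi-likelihood test of edgeR 4.0.16 in R 4.3.3, with Benjamini-Hochberg adjustment over the 13326 tested genes and a threshold of 0.05. The test was checked on simulated counts of independent libraries, a check that does not cover the dependence of replicate 4. CPM uses TMM library sizes. FPKM were described, not tested. Alternatives were other scalings and filters, a replicate block, replicate 4 as a batch term, DESeq2 1.42.0, limma-voom (limma 3.58.1) and left-out libraries. The members, gene lists and tests were chosen with earlier results of these data known. All 35 members are named, and of each further list up to 2 called genes per direction with the smallest p. Gene positions are from GENCODE M21 (GRCm38), matched by Ensembl gene identifier for 35 of 35 members. Promoter windows are RefSeq's on GRCm38.p6 (30 of 35 members). Protein sequences were not used here.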

Additional observations from a re-analysis of the deposited data

How the results depend on the processing

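The 35 genes gave 3 higher and 6 lower calls with all 6 libraries. The lower count was 11 with upper-quartile scaling and 3 with replicate 4 as a batch term. With libraries left out, 0 to 3 were higher and 1 to 6 lower, the extremes of 0 and 1 being those without replicate 4, and 3 were lower without KCl 4. Of the 176 further ER genes, 12 were higher and 26 lower, against 6 and 5 with replicate 4 as a batch term and 0 to 12 and 0 to 19 with libraries left out. For these genes the higher count was 6 and 5 without control 1 and control 4 in turn, and 7 and 5 without KCl 2 and KCl 4. The lower count was 14, 17 and 4 without control 1, 2 and 4 in turn, and 9 and 3 without KCl 1 and KCl 4. Over all genes, 1655 were higher and 1402 lower, against 922 and 651 with the batch term, 852 and 587 without control 4, 954 and 551 without KCl 4, and 45 and 17 without replicate 4. No call among the 35 genes changed direction, and the 9 called genes kept their sign in all alternatives that tested them. The sign of 8 uncalled genes turned in at least 1 alternative (Atf6, Derl2, Derl3, Dnajb9, Dnajc3, Edem2, Ppp1r15a and Syvn1). Stc2 was not tested with the mean CPM filter of 5.

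The groups share the replicate numbers 1, 2 and 4. Deviations of same-numbered libraries from their group means had correlations of 0.0234, -0.0555 and -0.746. Replicate 4 is not independent of the rest and enters both group means, so these values cannot decide whether the numbers are pairs. The main fit did not use the numbers to pair libraries. With a replicate block, 2 of the 35 genes were higher and 4 lower, 6 and 4 of the further ER genes, and 978 and 700 of all genes. Depth limits Derl3 and Stc2, with at most 30 and 183 counts per library.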
